A study of Mus musculus with 86 samples.

Results

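At 12.5 days post coitum (Theiler stage 20) the mouse metanephros, the embryonic kidney, holds nephron progenitors and their first induced descendants beside stroma and ureteric bud. Of 86 single cells from this organ, 14 that carried Wnt4 or Lhx1 RNA and lay outside the ureteric bud by the rule below are described here as Wnt4/Lhx1 cells. They were chosen by measured values. A cell was dropped when its RPKM (a read density scaled by gene length and by the cell's mapped reads) for Mal2, a ureteric bud gene in these cells, was 100 or more, which removed 7 cells. Of the other 79, a Wnt4/Lhx1 cell had Wnt4 or Lhx1 at an RPKM of at least 1, which is also the limit for calling any gene detected. They were set against 26 Six2 cells, with Six2 at 1 or more and Wnt4, Lhx1 and Pax8 all below 1. A further 14 Pax8 cells, with Pax8 at 1 or more but neither Wnt4 nor Lhx1, are given between them, and 25 cells fell in no group. All groups were wild type, of mixed strain background, and came from pooled male and female kidneys, dissociated and captured in Fluidigm C1 chambers. The labels give no cell type and no number of kidneys, and cells are numbered here as there. All cells are 1 pool and so 1 sample, and every difference below is a description of these cells without a test.

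Nephrons form when the ureteric bud signals to the mesenchyme around its tips. Progenitors that carry the transcription factor Six2 then gather into a pretubular aggregate and turn into an epithelial ball, the renal vesicle. Wnt4 is a secreted signal that the condensing cells need for this change to epithelium, Lhx1 is a homeobox factor needed in the vesicle, and Pax8 is a paired box factor that marks induced cells. Notch signals, sent by the membrane ligands Jag1 and Dll1 and read out by targets such as Hey1, take part in patterning the vesicle afterwards.

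The genes of the rule are given first, as description only. Of the 14 Wnt4/Lhx1 cells, 5 had both genes, 5 had Wnt4 alone and 4 had Lhx1 alone. Just inside the limit lay cell 69 with Wnt4 at 1.17 and cell 39 with Lhx1 at 1.16, and just outside lay Lhx1 at 0.463 in cell 61, while Wnt4 was listed at 0 in every remaining cell of these groups. For Mal2 the lowest dropped cell had 1219 and the highest kept cell 3.41, and for Six2 the lowest Six2 cell had 1.50 and the nearest cell outside, cell 60, 0.527. Of the 7 dropped cells, 5 also had Wnt4 or Lhx1 at 1 or more. Pax8, by which Six2 cells but not Wnt4/Lhx1 cells were chosen, was detected in 11 of the 14, at a median RPKM of 110.3 and a highest value of 373 in cell 5. Cells 39, 44 and 54 lacked it. Six2 was still detected in 10 of the 14 cells and was below 1 in cells 5, 40, 73 and 80.

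The label of induced nephron cells was checked against the other markers. Cited1, a factor of uninduced progenitors, was detected in 7 of 14 Wnt4/Lhx1 cells and in 16 of 26 Six2 cells. Foxd1, a stroma factor, was detected in 8 of 14 Wnt4/Lhx1 cells and in 19 of 26 Six2 cells. The summed RPKM of 20 stroma genes had a median of 563 (138 to 1650) in Wnt4/Lhx1 cells and 854 (287 to 1488) in Six2 cells. The 15 ureteric bud genes other than Mal2 summed to a median of 48.2 in Wnt4/Lhx1 cells and 36.5 in Six2 cells, against 1972 in the 7 dropped cells, and Ret and Gata3 were below 1 in all 14 Wnt4/Lhx1 cells. The 9 mural genes in the table summed to a median of 20.9 in Wnt4/Lhx1 cells and 53.5 in Six2 cells. Of 12 endothelial and 15 blood genes only Egfl7, Emcn and Cd68 are in the table. Egfl7 was in 7 of 14 Wnt4/Lhx1 cells and 9 of 26 Six2 cells, and Cd68 in 2 of 14 Wnt4/Lhx1 cells and 0 of 26 Six2 cells. The Wnt4/Lhx1 cells detected a median of 6709.5 genes (5175 to 7076) and the Six2 cells 6169 (4342 to 6964), so the middle Wnt4/Lhx1 cell detected more genes of any kind, and the number of reads per cell is unknown. The part of this gap and of the stroma genes in the results below was not tested.

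Genes of the pretubular aggregate and renal vesicle, called early nephron genes here, had the highest median ratio over Six2 cells among the lists with at least 8 members. The list has 36 genes, of which 26 are in the table. This and the other lists were chosen with earlier results of these data known, so their counts are description and no independent support. The rule also keeps cells with Pax8 out of the Six2 group, and the part of that in the ratios was not tested. A ratio below is the log2 of (mean RPKM + 1) in Wnt4/Lhx1 cells over that in Six2 cells, and a gene is called higher or lower at 2-fold, a ratio of 1 or -1. Of the 26 members, 18 were higher and 2 lower in Wnt4/Lhx1 cells, against 8.23% and 12.3% of all 12355 genes outside the rule. The median ratio of the members was 1.85, beside -0.06 over all genes. Of the 18, 4 were listed at 0 in all Six2 cells (Clec18a, Dkk1 and Emx2 among them), so that their ratio depends on the 1 added; over the 21 members that were not at 0 there, 14 were higher and the median was 1.71. Where a mean RPKM of 5 in either group was asked, which lets a gene in through the group where it is high, 15 of 20 members were higher and 1 lower, against 7.73% and 10.1% of 8158 genes. Over those 8158 genes 631 were higher and 825 lower, which is 43.3% and 56.7% of the calls, with a median ratio of -0.02. With the difference of mean log2(RPKM + 1) in place of the ratio the split was 69.0% and 31.0% and the median 0.10, so the balance of higher and lower genes over the whole table rests on the way of averaging and is not read further. By detection, which gives single high values less weight, 22 of the 26 members were detected in a larger share of Wnt4/Lhx1 cells and 3 in a smaller share, beside 6335 and 4770 of 12355 genes.

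Per cell, the Wnt4/Lhx1 cells detected a median of 11 of the 26 early nephron genes (5 to 19), the Pax8 cells 9 (4 to 13) and the Six2 cells 5 (2 to 12). The groups overlap, and cell 39, with 5 members, stood at the level of a middle Six2 cell. The 7 dropped bud cells also detected a median of 11 (10 to 15), with Wfdc2, Jag1 and Ccnd1 in all 7. Their median RPKM was 448 for Wfdc2, 42.6 for Jag1 and 88.2 for Ccnd1. The middle Wnt4/Lhx1 cell thus detected more members than the middle Six2 cell. The range of Wnt4/Lhx1 cells overlapped those of Six2, Pax8 and bud cells, so the number of members does not set them apart. Where cells with Foxd1 at 10 or more were left out of both groups, 14 members passed 2-fold in place of 15. Over all genes with a mean RPKM of 5 in either group, 905 were higher there in place of 631. That setting keeps 10 Wnt4/Lhx1 and 17 Six2 cells, and its count is given without a share of genes compared. Leaving out any single Wnt4/Lhx1 cell also raised the count, to 650 to 687. The part of the smaller groups in the rise was not tested. The 25 cells of no group detected a median of 6.

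**Figure D1:**
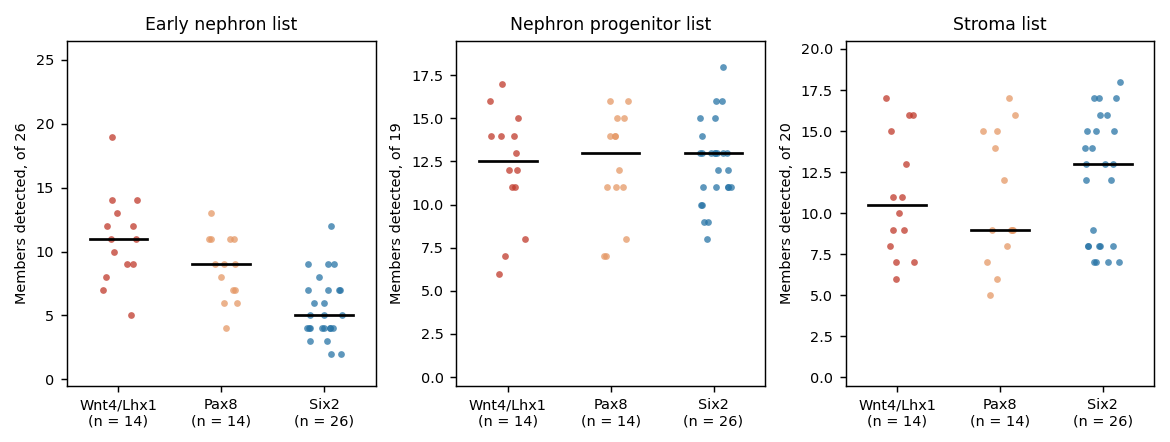
Each point is a cell, the y axis gives how many members of a gene list had an RPKM of at least 1, and lines are medians, for the early nephron, nephron progenitor and stroma lists. The early nephron list has medians of 11, 9 and 5 in Wnt4/Lhx1, Pax8 and Six2 cells, while the progenitor list has 12.5, 13 and 13.

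Jag1, the Notch ligand (gene 16449, chromosome 2, 136907194 to 136942067, mm9), stood highest among widely detected members. Its RPKM ranged from 0.118 over a median of 39.3 to 335 in Wnt4/Lhx1 cells, from 0 over 4.91 to 98.7 in Pax8 cells, and from 0 over 0.238 to 53.1 in Six2 cells. The Wnt4/Lhx1 cells were mostly high, with 13 of 14 above the Six2 median and 5 above the highest Six2 cell, and the low ones were cells 54, 44 and 39, the same cells that lacked Pax8. Jag1 was detected in 12 of 14 Wnt4/Lhx1 cells (85.7%, exact interval 57.2 to 98.2%), 9 of 14 Pax8 cells and 8 of 26 Six2 cells (30.8%, 14.3 to 51.8%); these intervals are Clopper-Pearson at 95% and cover counting error only. Its means were 60.0 ± 85.7 in Wnt4/Lhx1 cells and 3.65 ± 10.5 in Six2 cells (SD over 14 and 26 cells, as for every ± below), a ratio of 3.72. This was 3.10 without cell 5, 2.74 over the 10 Wnt4/Lhx1 cells that keep Six2, 4.72 where cells with Foxd1 at 10 or more were left out, and 3.58 as a difference of mean log2 values.

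Dll1, the other main Notch ligand of the vesicle, was in fewer cells. It was detected in 5 of 14 Wnt4/Lhx1 cells, 1 of 14 Pax8 cells and 1 of 26 Six2 cells, with a highest value of 132 in cell 5. Its means were 12.6 ± 35.0 in Wnt4/Lhx1 cells and 0.506 ± 2.55 in Six2 cells, a ratio of 3.17 that was 1.54 without cell 5 and 1.28 as a difference of mean log2 values. Of the 5 Dll1 cells, 4 also detected Jag1.

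Hey1, a transcriptional repressor switched on by Notch (gene 15213, chromosome 3, 8663359 to 8667038, mm9), followed Jag1 only in part. It ranged from 0 over a median of 21.8 to 241 in Wnt4/Lhx1 cells, from 0 over 0.0846 to 58.8 in Pax8 cells and from 0 over 0 to 36.1 in Six2 cells. It was detected in 9 of 14 Wnt4/Lhx1 cells, 6 of 14 Pax8 cells and 9 of 26 Six2 cells, with means of 52.3 ± 69.0 in Wnt4/Lhx1 cells and 5.27 ± 10.3 in Six2 cells, a ratio of 3.09. Within the Wnt4/Lhx1 cells it was split by the rule genes: all 5 cells with both Wnt4 and Lhx1 had it, at 57.7 to 241, as did 4 of 5 cells with Wnt4 alone and 0 of 4 cells with Lhx1 alone, where it stayed at or below 0.692. Jag1 was detected in all 4 of those Lhx1 cells, at 1.91 to 115. With groups of 4 and 5 cells this is a description.

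Beyond Jag1, Dll1 and Hey1 the Notch list was less marked. Of all its 17 members, 6 (35.3%) were higher, with Jag1, Dll1 and Hey1 among them, and 3 (17.6%) lower. This stands beside the 8.23% and 12.3% of all genes, and the lower share lies near that of all genes. Jag1 and Dll1 were also counted in the early nephron list. Heyl, a relative of Hey1, had a ratio of 1.13 that was 0.81 to 1.00 without cell 5, 43 or 56, and Hey2 (1.28) was detected in 1 Wnt4/Lhx1 cell, cell 40, without which its ratio was -0.39. Of the receptors, Notch2 was detected in every Wnt4/Lhx1 and Six2 cell, with means of 15.6 ± 7.18 in Wnt4/Lhx1 cells and 9.78 ± 6.54 in Six2 cells (ratio 0.63), Notch1 had 3.07 in Wnt4/Lhx1 cells and 0.981 in Six2 cells (ratio 1.04, and 0.67 without cell 73), and Notch3 had 0.371 in Wnt4/Lhx1 cells and 2.00 in Six2 cells (ratio -1.13). Hes1, a further target, had 8.33 in Wnt4/Lhx1 cells and 8.68 in Six2 cells. Rbpj, the DNA-binding partner of Notch, had a ratio of -0.55.

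Wfdc2, a secreted protease inhibitor domain protein (gene 67701, chromosome 2, 164388216 to 164394006, mm9), was the most abundant early nephron gene together with Ccnd1. It ranged from 0 over a median of 99.9 to 748 in Wnt4/Lhx1 cells, from 0 over 11.6 to 665 in Pax8 cells and from 0 over 0 to 145 in Six2 cells. Of the Wnt4/Lhx1 cells 12 detected it and 5 lay above every Six2 cell, cells 39 and 69 were at 0, and 11 of 26 Six2 cells detected it too. The means of 170 ± 217 in Wnt4/Lhx1 cells and 19.4 ± 39.9 in Six2 cells gave a ratio of 3.06, which was 1.79 over the Wnt4/Lhx1 cells that keep Six2. Ccnd1, cyclin D1, a driver of entry into the cell cycle and a Wnt target in many tissues, had a mean of 169 ± 200 in Wnt4/Lhx1 cells, 44.2 ± 43.5 in Pax8 cells and 38.6 ± 55.6 in Six2 cells. Its ratio was 2.10, and 1.28 over the Wnt4/Lhx1 cells that keep Six2. It was detected in 12 of 14 Wnt4/Lhx1 cells, 14 of 14 Pax8 cells and 21 of 26 Six2 cells, and cells 44 and 69 were below 0.1.

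**Figure D2:**
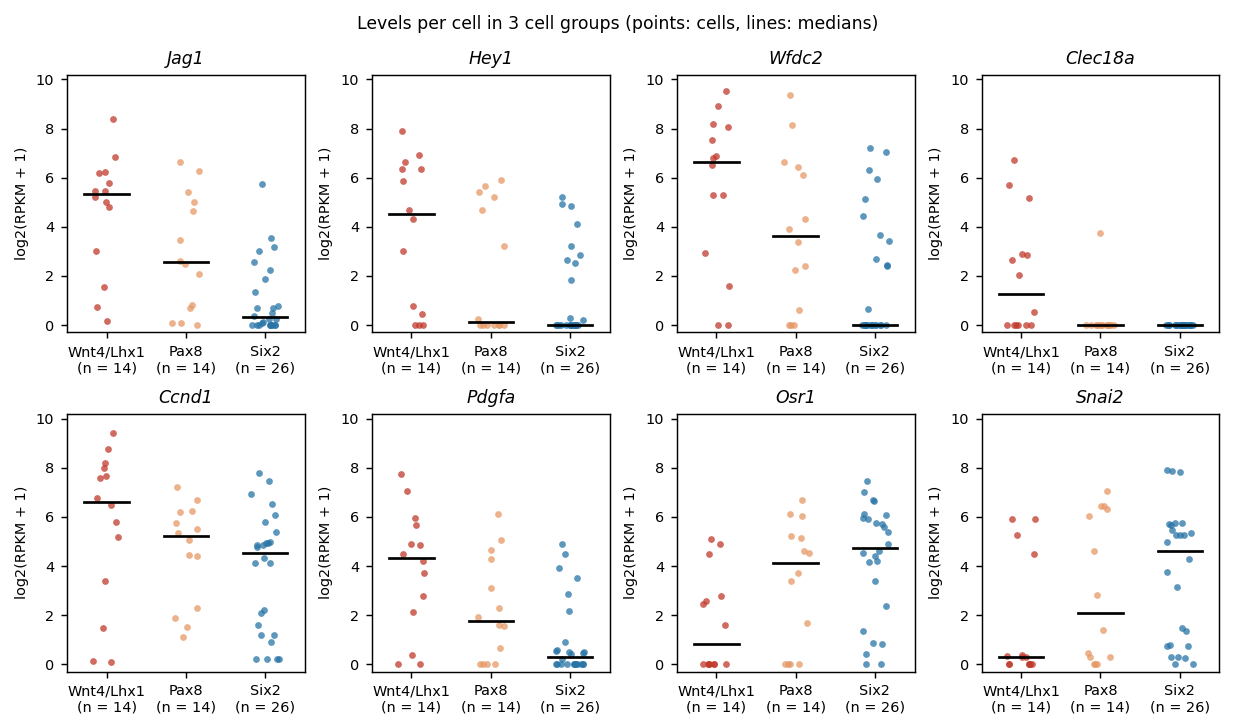
Each point is a cell, the y axis is log2(RPKM + 1), and lines are medians, for 8 genes in Wnt4/Lhx1, Pax8 and Six2 cells. Jag1 and Wfdc2 have median RPKM of 39.3 and 99.9 in Wnt4/Lhx1 cells and 0.238 and 0 in Six2 cells, and Osr1 has 1.04 in Wnt4/Lhx1 cells and 26.0 in Six2 cells; every gene overlaps between groups.

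The promoters of Jag1 and Wfdc2 are printed because 12 of 14 Wnt4/Lhx1 cells detected each gene and the first sends the Notch signal. Each is the 250 bases before the gene's start in RefSeq (GRCm38.p6), on the gene's own strand, in a build other than that of the deposited coordinates. Capitals mark TGGGAA or its reverse complement TTCCCA, the core letters bound by Rbpj; none overlap another motif searched. Jag1 lies on the minus strand at chr2:137116521-137116770 and Wfdc2 on the plus strand at chr2:164562465-164562714.
Jag1: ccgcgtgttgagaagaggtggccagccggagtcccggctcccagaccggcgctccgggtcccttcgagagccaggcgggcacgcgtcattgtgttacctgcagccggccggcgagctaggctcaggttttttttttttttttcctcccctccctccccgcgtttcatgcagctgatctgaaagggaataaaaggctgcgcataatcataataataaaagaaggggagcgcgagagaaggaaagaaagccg
Wfdc2: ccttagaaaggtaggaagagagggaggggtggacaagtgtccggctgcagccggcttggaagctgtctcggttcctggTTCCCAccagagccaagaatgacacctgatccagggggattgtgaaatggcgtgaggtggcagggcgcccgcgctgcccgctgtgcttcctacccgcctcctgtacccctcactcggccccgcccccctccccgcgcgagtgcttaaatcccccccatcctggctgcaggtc
The 17 higher genes of the early nephron and Notch lists with a mean RPKM of at least 5 had 7 genes in the promoter table. Of these, Wfdc2 held the Rbpj letters, beginning 172 bases before its start, and 0 of 7 held CTTTGA or TCAAAG, the core letters of TCF and LEF factors. Among all 32851 promoters listed, 21.6% held the Rbpj letters and 13.8% the TCF and LEF letters. A match is only a run of letters, and its absence says only that the letters are not in this window.

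Clec18a, a C-type lectin family gene (gene 353287, chromosome 8, 113588238 to 113605988, mm9), was found in Wnt4/Lhx1 cells and 1 other cell. It was detected in 7 of 14 Wnt4/Lhx1 cells (50.0%, exact interval 23.0 to 77.0%), with values up to 106 in cell 5, in 1 of 14 Pax8 cells, and was listed at 0 in all 26 Six2 cells (upper bound 13.2%) and all 7 bud cells, and below 1 in the 25 cells of no group. The 7 Wnt4/Lhx1 cells that had it also detected Jag1 and Wfdc2. Cdh6, a cadherin of early proximal tubule cells, was detected in 5 of 14 Wnt4/Lhx1 cells, 0 of 14 Pax8 cells and 0 of 26 Six2 cells, but also in 4 of the 25 cells of no group, up to 9.64, and 1 of 7 bud cells, with means of 10.3 ± 18.5 in Wnt4/Lhx1 cells and 0.0255 ± 0.108 in Six2 cells. Npy, a neuropeptide, was in 5 of 14 Wnt4/Lhx1 cells, 2 of 14 Pax8 cells and 1 of 26 Six2 cells and reached 191 in cell 5, and it was in 4 of the 25 cells of no group, up to 97.1. Osr2, a zinc finger factor, was in 5 of 14 Wnt4/Lhx1 cells, 1 of 14 Pax8 cells and 1 of 26 Six2 cells. The ratios of Npy (4.71) and Osr2 (3.27) were 4.01 and 2.47 without cell 5, and 2.08 and 1.43 as differences of mean log2 values.

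Bmp2, a secreted signal, was detected in 7 of 14 Wnt4/Lhx1 cells, 4 of 14 Pax8 cells and 3 of 26 Six2 cells, with means of 9.31 ± 12.1 in Wnt4/Lhx1 cells and 0.816 ± 2.91 in Six2 cells (ratio 2.51, and 1.58 over the Wnt4/Lhx1 cells that keep Six2). Greb1 was in 6 of 14 Wnt4/Lhx1 cells and 2 of 26 Six2 cells, with a ratio of 2.67 that was 1.31 without cell 5 and 0.98 over the cells that keep Six2. The Wnt inhibitor Dkk1 was detected in 1 Wnt4/Lhx1 cell, cell 5, at 41.2, and was listed at 0 in all Six2 cells. Fam132a (ratio 1.21), Tmem100 (1.19) and Cdh4 (1.30) passed 2-fold by little. They were at 0.85 without cell 80, 0.85 without cell 56 and 0.97 without cell 39.

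Other members did not follow. Npnt, a matrix protein, was the lowest with a ratio of -1.75 at means of 0.361 in Wnt4/Lhx1 cells and 3.58 in Six2 cells, in 1 of 14 Wnt4/Lhx1 cells and 3 of 26 Six2 cells, and -0.20 as a difference of mean log2 values. Foxc2, a forkhead factor, was at 21.3 ± 23.3 in Wnt4/Lhx1 cells and 18.0 ± 22.4 in Six2 cells. Sox9 had a ratio of -1.24, and -2.41 without cell 43, with 5 of 14 Wnt4/Lhx1 cells and 12 of 26 Six2 cells detecting it, Mecom -0.94, Frzb -0.97 and Bmper -0.82. Frzb was at -1.61 without cell 25, and Frzb and Bmper were at 0.31 and 0.28 as differences of mean log2 values, the other direction. Sim1 and Pou3f3, a factor of later tubules, were detected in 0 and 1 of the 14 Wnt4/Lhx1 cells.

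**Figure D3:**
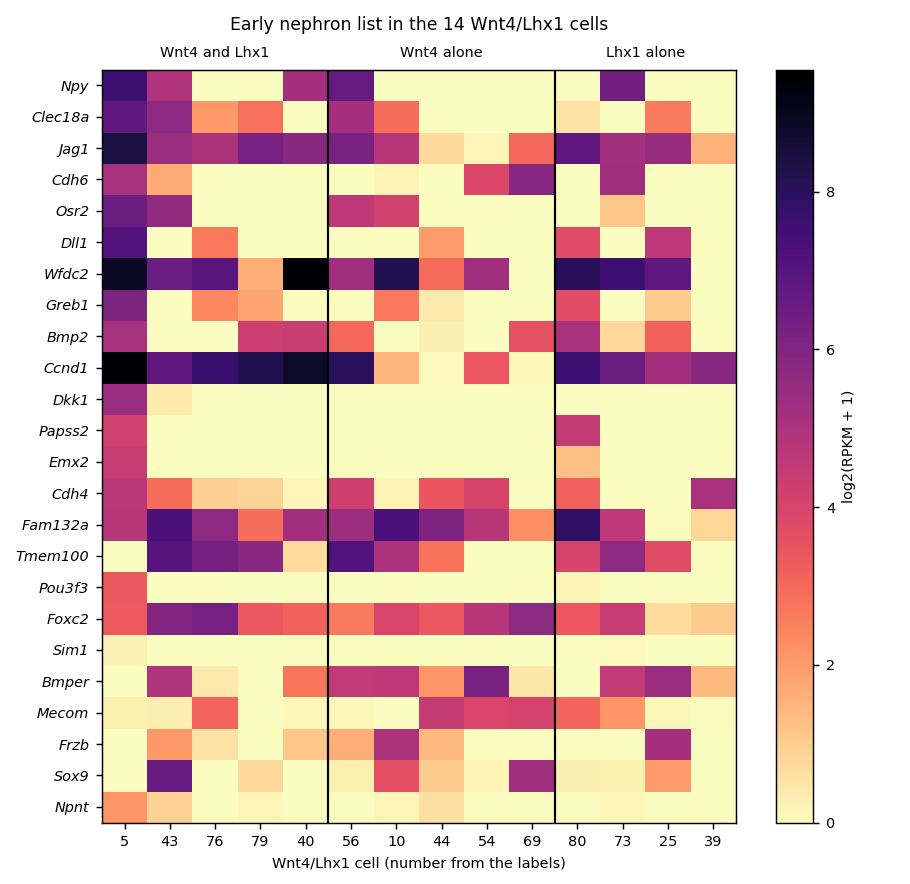
Rows are 24 of the 26 early nephron genes in the table, ordered by their ratio over Six2 cells, columns are the 14 Wnt4/Lhx1 cells by rule gene, and colour is log2(RPKM + 1). Cell 5 is the darkest column, with 19 of the 26 members detected, and cells 39, 44, 54 and 69 are pale for Jag1.

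The Wnt4/Lhx1 cells differed greatly from each other. Cell 5 had the highest Wnt4 (76.4), Lhx1 (45.3) and Pax8 (373) of the group, detected 19 early nephron genes and had no Six2, Cited1, Foxd1 or Osr1 at 1 or more. Of the 15 early nephron genes past 2-fold and the mean RPKM of 5, cell 5 held the highest value of 9, and without it 12 remained past 2-fold. At the other end cell 39 had Lhx1 at 1.16, Six2 at 34.5, Cited1 at 22.6 and no Pax8, and detected 5 members. Cells with both rule genes detected a median of 10 members (9 to 19), those with Wnt4 alone 11 (7 to 13) and those with Lhx1 alone 11.5 (5 to 14), so the number of members did not part these kinds of cell. Cldn6, a tight junction claudin, was in 3 Wnt4/Lhx1 cells, 5, 43 and 79, all with both Wnt4 and Lhx1. It was also in all 7 bud cells, at 134 to 403. Meox1, a progenitor homeobox gene, was at or below 0.213 in the 5 cells with both, and was detected in 4 of 5 with Wnt4 alone and 3 of 4 with Lhx1 alone.

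Among members with a mean RPKM of 5 in either group, and with the 4 cells that lack Six2 set aside, 9 early nephron genes passed 2-fold in place of 15. The median over those compared was 1.31 in place of 2.59, while all genes called higher numbered 736 in place of 631. With the 3 cells that lack Pax8 set aside, 14 passed and the median was 2.80, while all genes called higher numbered 713. These settings keep 10 and 11 Wnt4/Lhx1 cells, and their counts over all genes are given without a share. The part of the smaller groups in those counts was not tested. The Pax8 cells stood between the groups for 11 of the 15 genes by mean RPKM, at or below the Six2 cells for 2 and at or above the Wnt4/Lhx1 cells for 2.

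Most nephron progenitor genes passed 2-fold in neither direction. Of 19 members, 3 were higher and 3 lower in Wnt4/Lhx1 cells, 15.8% each beside 8.23% and 12.3% of all genes, with a median ratio of -0.25, and cells detected a median of 12.5 of them in Wnt4/Lhx1 cells and 13 in Six2 cells. Tmem100 (1.19), among the 3 higher members, was also counted in the early nephron list. Osr1, a zinc finger factor of early kidney mesenchyme (gene 23967, chromosome 12, 9581248 to 9588306, mm9), was the lowest. It ranged from 0 over a median of 1.04 to 33.5 in Wnt4/Lhx1 cells, from 0 over 17.2 to 103.3 in Pax8 cells and from 0 over 26.0 to 174 in Six2 cells, and 12 of 14 Wnt4/Lhx1 cells lay below the Six2 median. It was detected in 7 of 14 Wnt4/Lhx1 cells, 10 of 14 Pax8 cells and 21 of 26 Six2 cells, with means of 7.21 ± 11.6 in Wnt4/Lhx1 cells, 26.9 in Pax8 cells and 42.3 ± 44.7 in Six2 cells, and the ratio of Wnt4/Lhx1 over Six2 cells was -2.40. Of the 5 cells with both Wnt4 and Lhx1, 1 detected it.

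Cited1 had means of 23.9 ± 41.4 in Wnt4/Lhx1 cells, 74.3 in Pax8 cells and 74.5 ± 122 in Six2 cells (ratio -1.60), and Meox1 had 12.2 ± 16.5 in Wnt4/Lhx1 cells, 22.1 in Pax8 cells and 30.6 ± 30.4 in Six2 cells (ratio -1.26). Pax2, a paired box factor that induced cells also use, was higher (ratio 2.30, detected in 7 of 14 Wnt4/Lhx1 and 4 of 26 Six2 cells), but 1.16 without cell 73. Six4 (1.00) lay at the limit and was 0.55 to 0.98 without cell 25, 56, 69 or 73. Sall1, Wt1, Crym and Eya1, factors or markers of progenitors, had ratios of 0.03, 0.50, -0.32 and -0.59. Sall1 was detected in every cell of both groups, at means of 76.7 ± 31.7 in Wnt4/Lhx1 cells and 75.3 ± 67.6 in Six2 cells. Gdnf, the signal from progenitors to the bud, had a ratio of -0.47, and -1.17 without cell 25.

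The mesenchymal list had the lowest median among the lists with at least 8 members. Of 12 members, 0 were higher and 5 (41.7%) lower in Wnt4/Lhx1 cells, beside 8.23% and 12.3% of all genes, with a median of -0.78. Snai2, a repressor of epithelial genes (gene 20583, chromosome 16, 14705952 to 14709475, mm9), ranged from 0 over 0.237 to 60.2 in Wnt4/Lhx1 cells, with 4 of 14 detecting it, and from 0 over 24.4 to 240 in Six2 cells, with 18 of 26. Its means were 12.8 ± 22.7 in Wnt4/Lhx1 cells, 34.2 in Pax8 cells and 45.3 ± 72.2 in Six2 cells, a ratio of -1.75, and -1.16 against Six2 cells with Six2 at 10 or more. Snai2 was highest in the 25 cells of no group, with a mean of 113 and 24 of 25 detecting it. It was also counted in the stroma list. Snai1 (-2.19) and Prrx1 (-2.33) were also lower. Snai1 was in 4 of 14 Wnt4/Lhx1 cells and 9 of 26 Six2 cells and Prrx1 in 2 of 14 Wnt4/Lhx1 cells and 10 of 26 Six2 cells, and as differences of mean log2 values they were -0.60 and -1.08. Zeb2 had -1.04, and -1.81 without cell 43. Vim and Cdh11, widely detected mesenchymal genes, had -0.67 and -0.78, and Cdh2 and Ncam1, which epithelial precursors of the nephron also use, had 0.08 and 0.53.

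Of the epithelial list, 8 of 36 members (22.2%) were higher and 4 (11.1%) lower, beside 8.23% and 12.3% of all genes, with a median of -0.01, and the lower share is near that of all genes. Among those higher were junction genes found in few cells, such as Cldn6 and Marveld2 (ratio 2.33, and 1.18 without cell 39), the second in 3 of 14 Wnt4/Lhx1 cells and 1 of 26 Six2 cells. Cdh1, E-cadherin, was detected in 1 of 14 Wnt4/Lhx1 cells and 0 of 26 Six2 cells, and Epcam in 2 of 14 Wnt4/Lhx1 cells and 4 of 26 Six2 cells. Of the 7 bud cells, 7 detected Cdh1, 7 Cldn6 and 6 Epcam. Ezr, a linker of membrane and actin, was widely detected, with means of 46.5 in Wnt4/Lhx1 cells and 18.7 in Six2 cells (ratio 1.27). Pard3, a polarity protein, was lower (-1.55, and -0.91 as a difference of mean log2 values).

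Among matrix genes, 5 of 21 basement membrane members (23.8%) were higher and 4 (19.0%) lower, and of 20 interstitial matrix members 0 were higher and 4 (20.0%) lower, beside 8.23% and 12.3% of all genes. The laminin chain Lamc1 was detected in 11 of 14 Wnt4/Lhx1 cells and 12 of 26 Six2 cells, with means of 17.0 ± 16.4 in Wnt4/Lhx1 cells and 5.04 ± 8.70 in Six2 cells (ratio 1.58), Lama4 had a ratio of 1.80 and Col4a1 1.04 (0.81 without cell 40). Frem1, a Fraser complex protein at the border with the bud, was lower (-1.49), in 7 of 14 Wnt4/Lhx1 cells and 22 of 26 Six2 cells. Mfap4, of elastic fibres, was lower as well, with 32.0 ± 44.0 in Wnt4/Lhx1 cells and 77.6 ± 69.9 in Six2 cells (ratio -1.25, and -0.56 where cells with Foxd1 at 10 or more were left out of both groups). Of 20 stroma genes 0 were higher and 3 (15.0%) lower, beside 8.23% and 12.3% of all genes, with a median of -0.47. The lower share at 2-fold is near that of all genes. Of the 16 with a mean RPKM of 5 in either group, 14 had a ratio below 0 and 2 above. Over the 8158 genes compared, 4204 were below 0 and 3954 above. Aldh1a2 and Tcf21 had 0.38 and 0.24, and Cxcl12 -1.58.

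**Figure D4:**
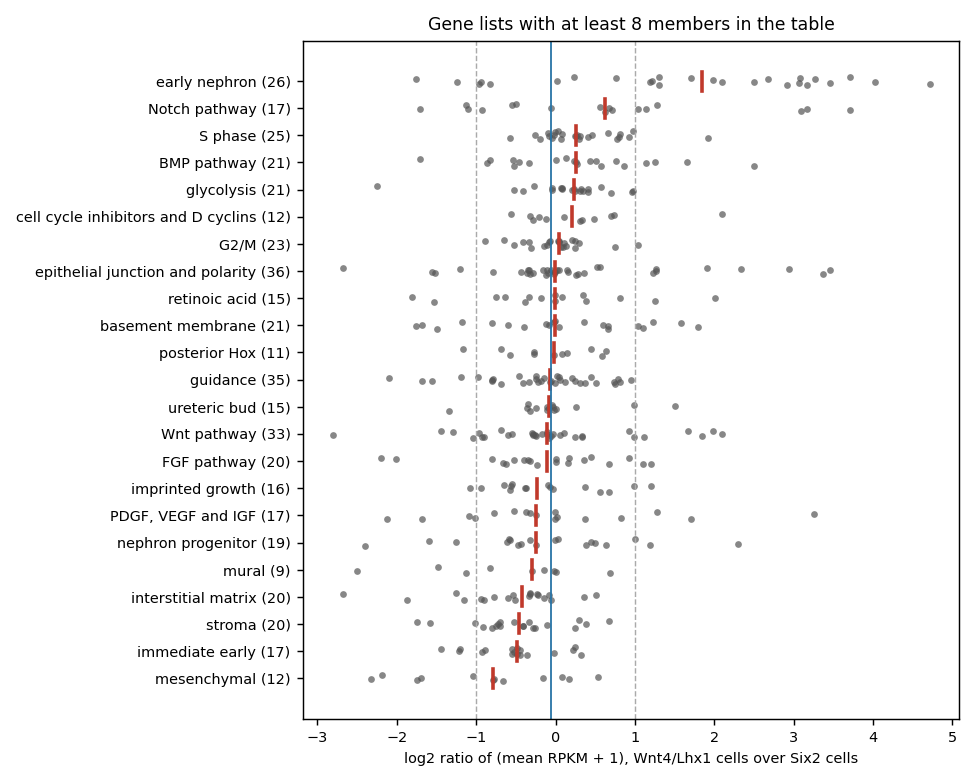
Each point is a gene of a list (number in the table in brackets), the x axis is the log2 ratio of (mean RPKM + 1) in Wnt4/Lhx1 cells over Six2 cells, red bars are list medians, dashed lines mark 2-fold and the blue line is the median of all genes. The early nephron list has a median of 1.85 and the mesenchymal list -0.78.

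In signalling pathways single genes stood out more than lists. Pdgfa, a growth factor that epithelia send to mesenchyme (gene 18590, chromosome 5, 139452929 to 139470907, mm9), was detected in 11 of 14 Wnt4/Lhx1 cells (78.6%, exact interval 49.2 to 95.3%), 9 of 14 Pax8 cells and 6 of 26 Six2 cells (23.1%, 8.97 to 43.6%). It ranged from 0 over a median of 19.4 to 213 in Wnt4/Lhx1 cells and from 0 over 0.246 to 28.7 in Six2 cells, and 5 Wnt4/Lhx1 cells lay above every Six2 cell. The means of 40.9 ± 60.8 in Wnt4/Lhx1 cells and 3.38 ± 7.32 in Six2 cells gave a ratio of 3.26. In the Wnt list of 33, 5 (15.2%) were higher and 4 (12.1%) lower, beside 8.23% and 12.3% of all genes. Lef1, a factor that carries Wnt signals to DNA and is itself a target, was detected in 7 of 14 Wnt4/Lhx1 cells, 2 of 14 Pax8 cells and 3 of 26 Six2 cells, with a ratio of 1.85 at low means of 3.42 in Wnt4/Lhx1 cells and 0.229 in Six2 cells. Axin2, another target, was in 1 of 14 Wnt4/Lhx1 cells and 4 of 26 Six2 cells. Sfrp2, a secreted Wnt inhibitor, was in all 14 Wnt4/Lhx1 cells, with a ratio of 1.11 that was 0.88 without cell 5 and 0.92 without cell 40.

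The retinoic acid receptor Rarb had a ratio of 2.01, which was 1.35 as a difference of mean log2 values and 1.4002 without cell 73, and Rdh10, an enzyme of retinoic acid synthesis, was detected in 13 of 14 Wnt4/Lhx1 cells and 16 of 26 Six2 cells (ratio 1.25, and 0.81 without cell 43). Stra6, a retinol transporter, was in 2 of 14 Wnt4/Lhx1 cells and 13 of 26 Six2 cells (-1.54, and -2.996 without cell 69). Of 20 FGF genes 2 were higher and 2 lower, 10.0% each and near the shares of all genes. Fgfr1 and Spry2, a feedback inhibitor, had ratios of -0.66 and -0.80, and Spred2 (-2.20) was in 3 of 14 Wnt4/Lhx1 cells and 12 of 26 Six2 cells. Of 21 BMP genes 4 (19.0%) were higher and 1 (4.76%) lower, led by Bmp2, and the BMP targets Id1 and Id3 had 0.87 and 0.58. Of 35 guidance genes 0 were higher and 4 (11.4%) lower, at the share of all genes.

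Few cell cycle genes passed 2-fold. Of 25 S phase genes 1 (4.00%) was higher, Cdc6 (1.92), and 0 were lower, beside 8.23% and 12.3% of all genes. The list median was 0.26, and 0.78 as a difference of mean log2 values. By detection, 18 of the 25 were in a larger share of Wnt4/Lhx1 cells than of Six2 cells and 2 in a smaller share. Of all 12355 genes, 6335 were in a larger and 4770 in a smaller share. Of 23 G2/M genes 1 (4.35%) was higher and 0 lower, beside the same shares of all genes, with a list median of 0.04. The higher gene was Ccna2 (1.04, and 0.49 without cell 43, 0.92 without cell 44 and 0.90 without cell 79). Hells, a chromatin remodeller of S phase, was detected in all 14 Wnt4/Lhx1 cells, 12 of which lay above the Six2 median, with means of 65.7 ± 34.5 in Wnt4/Lhx1 cells and 34.2 ± 41.1 in Six2 cells (ratio 0.92, and 1.61 as a difference of mean log2 values). The inhibitor Cdkn1c had 336 ± 227 in Wnt4/Lhx1 cells and 496 ± 328 in Six2 cells. The imprinted gene Mest was at 405 ± 240 in Wnt4/Lhx1 cells, 784 in Pax8 cells and 858 ± 509 in Six2 cells, with 13 of 14 Wnt4/Lhx1 cells below the Six2 median (ratio -1.08, and -0.99 without cell 43 or without cell 76). In glycolysis 0 of 21 were higher and 1 (4.76%) lower, beside 8.23% and 12.3% of all genes. Ldha, lactate dehydrogenase, fell short of 2-fold, with 972 ± 471 in Wnt4/Lhx1 cells and 497 ± 379 in Six2 cells (0.97). For Ldha, 12 of 14 Wnt4/Lhx1 cells were above the Six2 median, and Pgk1 had a ratio of 0.70. Of 11 posterior Hox genes 0 were higher and 1 (9.09%) lower, near the share of all genes. Of 17 immediate early genes, which dissociation can switch on, 0 were higher and 3 (17.6%) lower, beside 12.3% of all genes: Ier2 (-1.20), Dusp1 (-1.22) and Klf6 (-1.44).

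Over all genes, the ratio was ranked where the higher side averaged an RPKM of 10 and 50% of its cells detected the gene. Clec18a, Fam176a (3.74, and 2.92 without cell 5), Jag1, Nckipsd (3.60, and 2.92 without cell 44), Tmem50b, Pdgfa, Hey1 and Wfdc2 led the higher genes. Tmem50b, a membrane protein gene, was detected in 11 of 14 Wnt4/Lhx1 cells and 7 of 26 Six2 cells, with means of 42.1 ± 45.7 in Wnt4/Lhx1 cells and 3.43 ± 8.67 in Six2 cells (ratio 3.29). Clu, clusterin, had a ratio of 2.90 that was 1.41 without cell 5. Galnt2, a glycosyltransferase, was in 12 of 14 Wnt4/Lhx1 cells and 7 of 26 Six2 cells (2.10), and Sgms2, a sphingomyelin synthase, in 9 of 14 Wnt4/Lhx1 cells and 4 of 26 Six2 cells (2.21, and 1.49 without cell 25). Galnt2 was named for its difference in share detected and not for its ratio. Golph3, a Golgi protein, had a ratio of 2.33 and was in 12 of 14 Wnt4/Lhx1 cells and 17 of 26 Six2 cells.

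Several of the lowest genes were detected in few Wnt4/Lhx1 cells and in many Six2 cells. Lipa, lysosomal acid lipase, and Actn3, an actinin, were each detected in 1 of 14 Wnt4/Lhx1 cells and 14 of 26 Six2 cells, with ratios of -3.38 and -3.70. 1500031L02Rik was in 4 of 14 Wnt4/Lhx1 cells, 9 of 14 Pax8 cells and 20 of 26 Six2 cells, with means of 2.99 ± 5.06 in Wnt4/Lhx1 cells, 32.0 in Pax8 cells and 39.4 ± 55.4 in Six2 cells (ratio -3.34). Tmem37 had a ratio of -3.77, which was -5.31 without cell 73. Slc40a1, the iron exporter, was in 6 of 14 Wnt4/Lhx1 cells, 11 of 14 Pax8 cells and 19 of 26 Six2 cells (-2.65, and -3.25 without cell 44). Adamts1, a matrix protease, was in 3 of 14 Wnt4/Lhx1 cells and 19 of 26 Six2 cells (-1.66, and -3.33 without cell 44), and Kcnt2 in 0 of 14 Wnt4/Lhx1 cells (upper bound 23.2%) and 12 of 26 Six2 cells. Rictor, a subunit of the mTOR complex, was in 6 of 14 Wnt4/Lhx1 cells and 23 of 26 Six2 cells (-1.91).

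**Figure D5:**
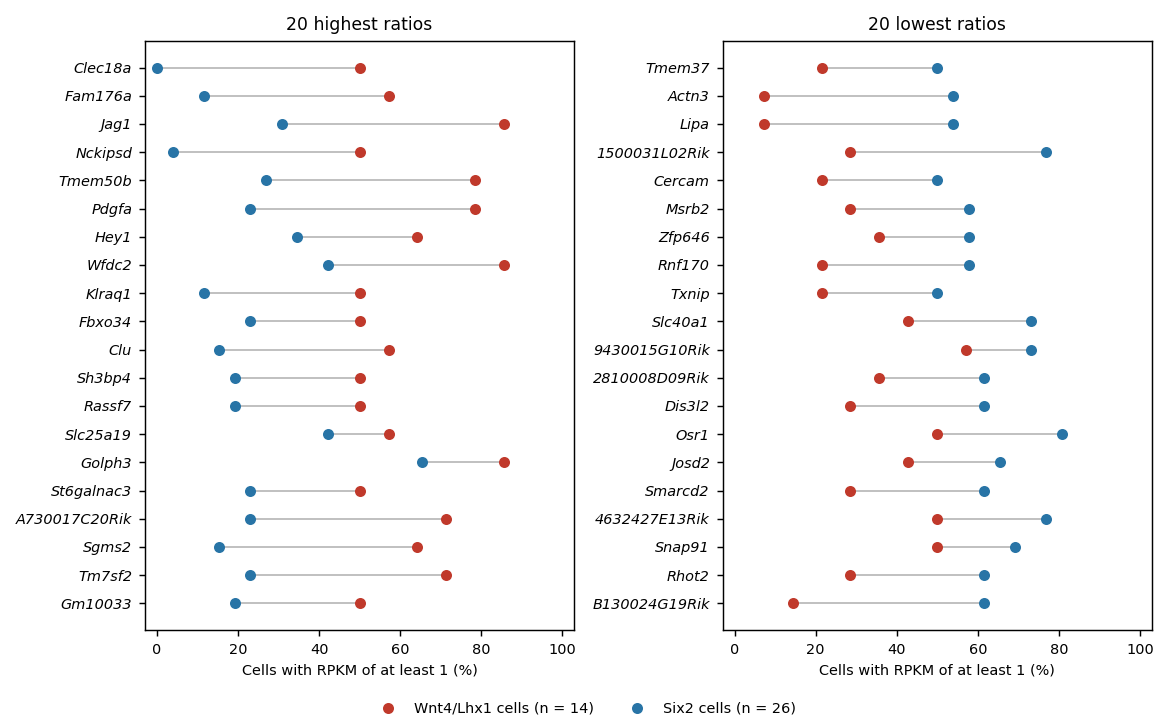
The x axis is the percentage of cells with an RPKM of at least 1 in 14 Wnt4/Lhx1 cells (red) and 26 Six2 cells (blue), for the 20 highest and the 20 lowest ratios among genes averaging an RPKM of 10 and found in 50% of cells on the higher side. Jag1 stands at 85.7% of Wnt4/Lhx1 cells and 30.8% of Six2 cells, and Osr1 at 50.0% of Wnt4/Lhx1 cells and 80.8% of Six2 cells.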

How the data were processed

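Single cells of trypsin-dissociated kidneys were captured on a Fluidigm C1 chip, checked by microscope, amplified with SMARTer chemistry, made into Nextera XT libraries and sequenced on a HiSeq2500, per the labels' protocols. The authors deposited RPKM values for 12360 genes in 86 cells; per the file headers, the cells above RPKM 3 were counted for each gene. The submitters' processing notes name TopHat 1.4.1, DESeq and build mm9, without further steps. The read number per cell is not in the table, so no interval for a level is given. A second deposited table was not used here. No doublet caller was run and no cell was left out beyond the rule. The members and gene lists were chosen with earlier results of these data known.

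Means, ratios of (mean RPKM + 1), shares of cells at RPKM 1 or more and exact intervals were computed with Python 3.11.15, numpy 2.4.6, pandas 2.3.3 and scipy 1.17.1, and figures with matplotlib 3.10.9. The 5 genes of the rule were left out. A mean RPKM of 5 in either group was asked of the 8158 compared genes, of ranked genes and, unless stated, under the other settings. List counts and medians set beside all 12355 genes had no such filter. The calculation was checked on simulated data. Named genes were the 20 highest and 20 lowest ratios, the 10 largest and 10 smallest differences in share detected, all early nephron, progenitor and Notch members, and up to 3 highest and 3 lowest members of each other list. Other genes named were chosen after their values were seen. Alternatives were other averaging, pseudocount, filters, scaling, thresholds and subsets of cells, and leaving out each Wnt4/Lhx1 cell in turn; Six2 cells were not left out in turn. Values of 2 early nephron genes are not reported here one by one.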

Additional observations from a re-analysis of the deposited data

How the results depend on the processing

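Under other settings the 631 higher and 825 lower genes became 733 and 329 with the mean of log2(RPKM + 1), 1017 and 1522 with no filter on low values, 368 and 449 with a mean RPKM of at least 10, and 134 and 218 with a log2 ratio of 2 as the call. Leaving out single Wnt4/Lhx1 cells gave 650 to 687 higher and 848 to 903 lower genes. The early nephron members past 2-fold numbered 15, were 12 to 15 with single cells left out, 14 with cells that detect Pax8 (chosen after seeing the data, as was recounting these members under each setting), and 9 with cells that keep Six2. Over all genes, 713 were higher with the 11 cells that detect Pax8 and 736 with the 10 cells that keep Six2, given without a share. Among named genes called at 2-fold, direction turned for Pdgfrb with the mean of log2 values (0.32), for Sco1 with Wnt4 or Lhx1 at 10 or more (-0.35), for Marveld2 with Wnt4 alone as rule gene (-0.26), for Papss2 (-0.17) and Hey2 (-0.36) with cells that keep Six2, and for Hey2 without cell 40 (-0.39; its range with single cells left out reached 1.36). The cause was not tested. Of 100 named genes short of 2-fold, 51 changed sign somewhere: 48 under another setting, Frzb and Bmper among them, and 24 with a single cell left out, such as Rfng (0.71, and -0.51 without cell 56) and Epcam (0.36, and -0.84 without cell 5). Of the other values of named genes under these settings, 83 moved by more than the spread over cells and 2343 did not. With single cells left out these counts were 8 and 3085. That spread is the SD of log2(RPKM + 1) over the Wnt4/Lhx1 cells. It is wide where many cells are at 0, so few values could pass it and the counts do not measure stability. No paired analysis was possible because all cells come from 1 pool and share no replicate numbers.

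The 14 Wnt4/Lhx1 cells and 26 Six2 cells come from 1 pool, so no difference has a replicate check. Each cell's read number is unknown, so a gene listed at 0 may have been missed. Values of some early nephron genes found in few cells, such as Dll1, Greb1 and Dkk1, rest largely on cell 5, as given above. Others do not: Cdh6 was highest in cell 69, and its ratio of 3.46 was 2.92 without that cell. Ratios of means weight the highest cells. The spread over cells mixes capture, amplification and differences between cells, which these data do not part.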
